A study of Drosophila melanogaster with 44 samples.

Results

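The genes described here encode contractile proteins of the fly's flight muscle. They were taken from a list of 10 genes: the myosin heavy chain Mhc, the myosin regulatory light chain Mlc2, the actins Act88F and Act57B, the troponin genes up, wupA and TpnC73F, the flight muscle protein flightin (fln), the giant kinase bent (bt) and the LIM protein Mlp60A. Every probe set whose annotation gave 1 of these genes, and no other, was used. Of the 10 listed genes, 7 had such a probe set, and these 7 genes had 10 probe sets in all. Mhc, Act57B and wupA were matched to 0 probe sets in the annotation used, whether of 1 gene or of several, and these 3 genes were not analysed here. The series holds 11889 genes, of which 7485 had a mean log2 value of at least 6 and were tested. All 7 genes passed that filter.

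Muscle contracts when myosin heads on thick filaments pull on actin in thin filaments. Calcium starts the pull by binding troponin C on the thin filament, and troponin T ties the troponin complex to tropomyosin. In the indirect flight muscles of insects, stretch also activates the filaments, and giant elastic proteins such as bent (projectin) link the thick filaments to the Z-disc, the plate at which thin filaments are anchored. Flight muscle has its own actin, Act88F, and its own thick filament protein, flightin. Mlc2, up, bt, TpnC73F and Mlp60A are used in other muscles of the fly as well, so the set as a whole is not specific to flight muscle.

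The study asked how Drosophila melanogaster responds when a stretch of a chromosome is present in 1 copy. Each of the 44 samples was a pool of 15 adult females, 0 to 24 h old, raised at 25 °C and frozen whole. The 6 wild-type samples were compared with 19 samples of flies heterozygous for 1 deletion and 19 samples of flies heterozygous for 2. The deletions were Df(2L)ED4559, Df(2L)ED3, Df(2R)ED1612, Df(2R)ED1770 and Df(3R)ED10953, with 3 single-deletion samples each, and Df(3R)ED5071 and Df(3R)ED7665, with 2 each; each of the 19 double combinations had 1 sample. They are called by their ED names below. In the single deletions and in 15 of the doubles each deletion lay over a normal chromosome, and in the other 4 doubles the deletions lay on the 2 copies of one chromosome, with no normal copy of it. Each sample was hybridised to 1 Affymetrix array. The labels call the replicates biological but do not describe their cultures, so the p-values measure the spread between these pools. Since whole flies were used, fewer muscle cells and less muscle RNA per cell cannot be told apart.

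No gene of the set lies in a deleted interval, so 2 copies of each were assumed in all flies. The intervals were mapped from lower values in carriers on these same arrays, not from known breakpoints. Mlc2 and Act88F lie on chromosome arm 3R, Mlp60A on 2R, TpnC73F and fln on 3L, bt on chromosome 4 and up on X. The median log2 value of an array was 5.50 to 5.73, and precision is limited by how many arrays there are. The labels number the arrays, and the number is not said to be a batch. Wild type has the numbers 1 to 6, whereas single and double deletions have numbers both up to 26 and from 27. Numbers 1 to 6 and wild type therefore cannot be told apart.

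The probe sets of these genes were among the brightest on the array. Act88F had the second highest mean of 18952 probe sets, 14.54 on the log2 scale with an SD of 0.08 over 44 arrays, and was the brightest probe set on 25 of the 44 arrays. The probe set of fln ranked 21st by mean, Mlc2 78th, Mlp60A 136th, bt 362nd, up 369th and TpnC73F 1322nd. Ranks are given as the brightness of the probe sets, not as an order of transcript amounts. The SD over all arrays was 0.12 for fln, 0.19 for Mlc2, 0.13 for Mlp60A, 0.41 for bt, 0.42 for up and 0.46 for TpnC73F. Probe sets of all genes varied less at the bright end: the median SD was 0.241 for the 3677 probe sets with means from 8 to 10, 0.193 for the 249 from 12 to 13 and 0.0707 for the 44 from 14 to 15. The small differences of Act88F and fln below are therefore differences of probe sets in the range where all probe sets vary little.

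Wild-type replicates 4 and 5 stood apart for these genes. Act88F, the flight muscle actin, had log2 values of 14.60, 14.53, 14.62, 14.18, 14.36 and 14.60 in wild-type replicates 1 to 6. For fln, whose protein binds the myosin rod, the values were 14.33, 14.16, 14.31, 13.61, 14.04 and 14.30. Replicate 4 was the lowest of all 44 arrays for each of the 7 genes, and replicates 4 and 5 were the lowest 2 of the 6 wild-type arrays for 6 of them, Mlp60A being the exception. The thick filament gene bt ran from 10.96 in replicate 4 and 11.79 in replicate 5 to 12.46 in replicate 1, and Mlc2 from 13.04 and 13.53 to 13.98. The thin filament gene up, which encodes troponin T, had 10.78 and 11.44 in the same replicates and at most 12.51 in another, and TpnC73F, a troponin C, had 8.90 and 9.77 against at most 10.45. The germline list holds genes chosen for roles in the ovary's germ cells, not all of them confined to these cells. It stood at 0.95 and 0.69 in replicates 4 and 5, relative to its mean over all arrays. The remaining wild-type arrays had -0.74 to -0.23. The eggshell and yolk list stood at 4.02 and 3.54 there, and at -1.80 to 0.25 in the others. The comparison with wild type, the slopes and the correlations below are also given without them.

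**Figure D1:**
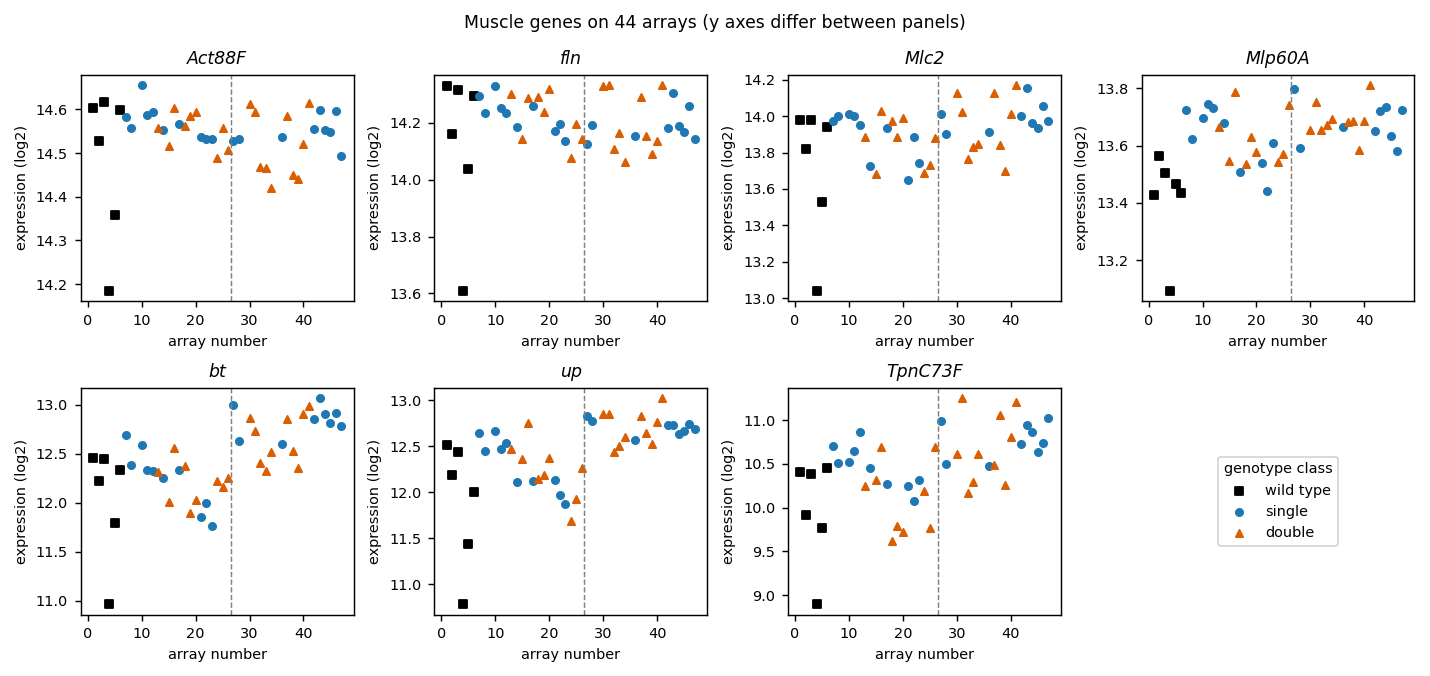
Log2 expression (y axis, scale differs between panels) of the 7 genes on 44 arrays, by the array number in the labels (x axis), with wild type as squares, single deletions as circles and double deletions as triangles; the dashed line lies between numbers 26 and 27. Wild-type replicate 4 is the lowest point in each panel, and bt lies at 12.84 ± 0.15 (SD, n = 9) in single deletions from 27 against 12.25 ± 0.30 (SD, n = 10) up to 26.

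Single deletions were compared with wild type to ask what happens to genes outside the deleted segment. Of the 7 genes, only Mlp60A passed the test, and it was higher in the deletions by 0.24 ± 0.06 (SE) on the log2 scale (limma, Benjamini-Hochberg adjusted p = 0.042). Of the 7193 genes tested outside the intervals, 1.28% passed. The median difference of the 7 genes was 0.24, against -0.0028 for all genes tested. Mlp60A encodes a small LIM protein of muscle. Its brightest probe set had values of 13.43, 13.56, 13.50, 13.09, 13.47 and 13.44 in the wild-type replicates, a mean of 13.42 ± 0.17 (SD, n = 6), and ran from 13.44 over a median of 13.67 to 13.80 in the 19 single-deletion arrays. In 16 of the 19 it was above every wild-type array. Among the doubles it was 13.66 ± 0.08 (SD, n = 19).

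The call on Mlp60A rested on several choices. Without wild-type replicates 4 and 5 the difference was 0.17 (adjusted p = 0.0695). With the array number group as a block it was 0.21 (adjusted p = 0.245), and among arrays numbered up to 26 alone it was 0.21 (adjusted p = 0.448). It was positive in 37 of 37 settings, and past the threshold in 12 of them. Leaving out single arrays ended the call in 19 of 25 cases, with an adjusted p of up to 0.0983, reached without wild-type replicate 4. The call held only without replicate 2 of wild type, ED4559, ED3, ED1612, ED1770 or ED5071.

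The other genes were higher in the single deletions on average but did not pass. TpnC73F had 9.97 ± 0.60 (SD, n = 6) in wild type, and ran from 10.08 over a median of 10.64 to 11.03 in single deletions. The difference was 0.64 ± 0.18 (SE, adjusted p = 0.076), and 15 of 19 single-deletion arrays lay above every wild-type array. For up the difference was 0.62 ± 0.20 (SE, adjusted p = 0.105), with wild type at 11.89 ± 0.67 (SD, n = 6) and 12 of 19 arrays above it. The giant kinase gene bt differed by 0.52 ± 0.21 (SE, adjusted p = 0.165), with 11 of 19 above, and Mlc2 by 0.22 ± 0.10 (SE, adjusted p = 0.218), with 7 above. The flight muscle genes Act88F and fln differed by 0.08 ± 0.05 and 0.08 ± 0.07 (SE), with adjusted p of 0.372 and 0.540. The differences were smaller without wild-type replicates 4 and 5: TpnC73F then differed by 0.32, up by 0.23, bt by 0.19, Mlc2 by 0.01, Act88F by -0.03 and fln by -0.07, and 0 of the 7 genes passed (limma). At an unadjusted p under 0.05, 5 of the 7 genes and 1514 of the 7193 genes passed with all arrays.

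**Figure D2:**
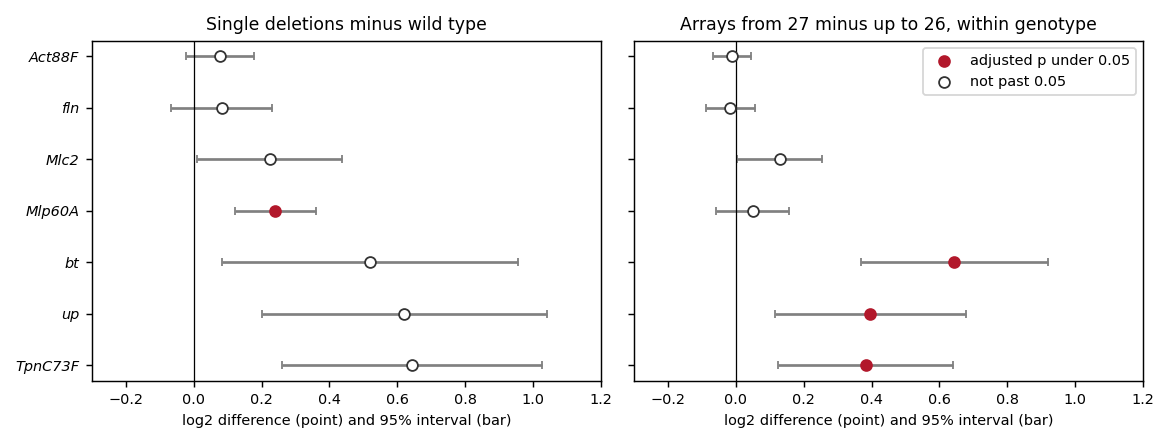
Log2 differences (x axis) of the 7 genes (y axis) with 95% intervals as bars, for single deletions minus wild type on the left and for arrays numbered from 27 minus those up to 26 within genotype on the right. Filled points have an adjusted p under 0.05, which are Mlp60A at 0.24 on the left and bt, up and TpnC73F at 0.64, 0.40 and 0.38 on the right.

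Mlp60A is the only gene of the set with several probe sets that passed the filter, and they did not move alike. The middle probe set had 10.45, 10.15, 10.34, 8.39, 9.12 and 9.91 in wild-type replicates 1 to 6, and the dimmest 9.02, 8.56, 9.17, 6.76, 7.54 and 8.29. Replicate 4 was thus the lowest wild-type array for each probe set, and replicate 5 was the next lowest for the dimmer ones. The brightest lay 0.33 below the next array. As a share of the wild-type range, the gap from replicate 4 to the next array was 0.707 for the brightest, 0.355 for the middle and 0.324 for the dimmest. Fitted probe set by probe set (7623 tested), the differences of single deletions from wild type were 0.24 for the brightest (adjusted p = 0.0441), 0.22 ± 0.21 (SE, adjusted p = 0.580) for the middle and 0.01 ± 0.25 (SE, adjusted p = 0.984) for the dimmest. The brightest minus the middle probe set was 3.69 ± 0.69 (SD, n = 6) in wild type and 3.70 ± 0.24 (SD, n = 19) in single deletions (two-sided exact permutation p = 0.941). Without wild-type replicates 4 and 5, which was chosen after the values were seen, it was 3.27 ± 0.25 (SD, n = 4) in wild type, a difference of 0.43 (two-sided exact permutation p = 0.00327), and for the dimmest probe set the difference was 0.66 (p = 0.00407, same exact permutation test). The rise of Mlp60A was called for its brightest probe set only. With all arrays the brightest minus the dimmest differed by 0.19 (two-sided exact permutation p = 0.420). A rise particular to the brightest probe set was therefore not shown with all arrays. The transcripts that each probe set reads were not looked up here. The second probe set of TpnC73F had a mean of 3.47 and was not tested.

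**Figure D3:**
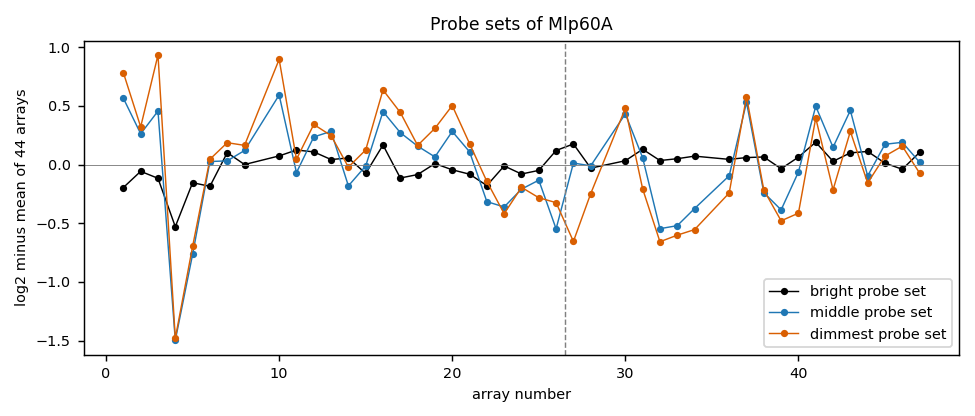
Log2 value minus the mean of 44 arrays (y axis) of the 3 probe sets of Mlp60A, by array number (x axis), with a dashed line between numbers 26 and 27. The SD over the arrays is 0.13 for the bright probe set, 0.40 for the middle and 0.48 for the dimmest, and the dimmer probe sets move together.

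No difference among the 7 deletions was called for these genes. In the F test among the deletions 0 of the 7 genes passed (limma), 0 did at an unadjusted p under 0.05, and 0.0973% of 7193 genes passed (296 of them had an unadjusted p under 0.05). The means of the 7 deletions spanned 0.05 for Act88F, from 14.53 in ED5071 to 14.58 in ED1770, and 0.51 for bt, from 12.29 ± 0.51 (SD, n = 3) in ED3 to 12.80 ± 0.28 (SD, n = 2) in ED5071. For up they spanned 0.39, from 12.37 ± 0.43 (SD, n = 3) in ED3 to 12.75 ± 0.02 (SD, n = 2) in ED7665. In ED3 the SD between replicates of bt and up was thus about as large as the span of the 7 means.

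No gene of the set was called between 2 deletions and 1. Doubles were set against singles over all 44 arrays, with each deletion given the weight it has among the doubles: 0 of the 7 genes passed (limma), 0 had an unadjusted p under 0.05, and 0% of 7193 genes passed, with 258 genes at an unadjusted p under 0.05. The 7 differences ran from -0.20 ± 0.14 (SE) for TpnC73F to 0.00 ± 0.03 (SE) for Mlp60A. Doubles of TpnC73F ran from 9.62 over a median of 10.32 to 11.25, those of bt from 11.90 over 12.38 to 12.99 and those of up from 11.69 over 12.50 to 13.02. They overlapped the single deletions throughout. Of the 19 doubles the 10 from 27 all carry ED5071 or ED7665 and 0 of the 9 up to 26 do, so the array number and these deletions cannot be told apart among them. The gene bt had 12.20 ± 0.21 (SD, n = 9) up to 26 and 12.65 ± 0.25 (SD, n = 10) from 27, up 12.24 ± 0.31 and 12.70 ± 0.19, and TpnC73F 10.11 ± 0.41 and 10.67 ± 0.39. Act88F had 14.55 ± 0.04 and 14.52 ± 0.08, fln 14.22 ± 0.09 and 14.20 ± 0.11, and Mlc2 13.86 ± 0.13 and 13.94 ± 0.17, with the same n. The highest array of all 44 was a double for up, Mlc2 and Mlp60A (ED7665 with ED3) and for fln and TpnC73F (ED5071 with ED10953). For TpnC73F the 95% interval of the difference reached from -0.49 to 0.09, and for bt, at -0.11 ± 0.13 (SE), from -0.37 to 0.15, so differences of that size would not have been told from 0.

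Carriers of each deletion, single and double, were then compared with all other flies, 49 tests over 7 genes and 7 deletions. One test passed. In carriers of ED7665 up was higher by 0.54 ± 0.16 (SE, adjusted p = 0.0169), a comparison in which 18.9% of the genes passed. Carriers of ED7665 ran from 12.52 over a median of 12.77 to 13.02 for up. Next came Mlp60A in ED5071 with 0.14 ± 0.05 (SE, adjusted p = 0.0543), bt in ED7665 with 0.44 ± 0.16 (SE, adjusted p = 0.0548) and up in ED5071 with 0.44 ± 0.16 (SE, adjusted p = 0.0590), and 12% of the genes passed in ED5071. In the other 5 deletions 0 of the 35 tests on these genes passed (limma), and of all genes 0.833% did in ED4559, 0.429% in ED3, 0.282% in ED1612, 0.283% in ED1770 and 4.97% in ED10953. At an unadjusted p under 0.05 there were 2 of 7 genes in ED4559 (1143 of all 7446 genes), 1 in ED3 (819 of 7463), 1 in ED10953 (1304 of 7466), 0 in ED1612 (535 of 7435) and 0 in ED1770 (709 of 7425). On the same threshold ED5071 had 3 of 7 (2151 of 7434) and ED7665 had 4 of 7 (2554 of 7434). Every carrier of ED5071 or ED7665 has an array number from 27. With the array number group as a block the difference of up in ED7665 was 0.10 (adjusted p = 0.999), and among arrays from 27 alone it was 0.06 (adjusted p = 0.873).

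Within a genotype, bt, up and TpnC73F were higher on arrays numbered from 27 than on those up to 26. For 5 deletions, replicates 1 and 2 have numbers up to 26 and replicate 3 has a number from 27. In bt, replicate 3 of ED4559 had 13.07 against 12.34 and 12.39 in the other replicates, and that of ED3 had 12.79 against 11.77 and 12.32. ED1612 had 12.91 against at most 12.33, ED1770 had 12.81 against 11.86 and 12.59, and ED10953 had 12.90 against 12.25 and 12.69. The later array was thus above both earlier ones in 5 of 5 deletions. The difference over the 19 single-deletion arrays, with genotype in the model, was 0.64 ± 0.13 (SE, adjusted p = 0.00115). The background was high, since 51.6% of 7485 genes passed, 31.5% upward and 20.1% downward, and the median of all genes was 0.056.

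TpnC73F rose by 0.38 ± 0.12 (SE, adjusted p = 0.0167), and replicate 3 was again above both others in 5 of 5 deletions. It had 10.94 in ED4559 against 10.26 and 10.51, and 11.03 in ED3 against 10.32 and 10.86. Troponin T gene up rose by 0.40 ± 0.13 (SE, adjusted p = 0.0218), with replicate 3 above both others in 3 of 5 deletions. In ED1770, for example, the third replicate of up had 12.66 against 12.13 and 12.66. Without replicate 3 of ED4559 only bt passed, with adjusted p of 0.0515 for up and 0.0554 for TpnC73F, and up was also lost without replicate 3 of ED1612 (adjusted p = 0.0613) or of ED3 (adjusted p = 0.0650).

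The flight muscle genes did not pass. Act88F differed by -0.01 ± 0.03 (SE, adjusted p = 0.728), with a 95% interval from -0.07 to 0.05, and fln by -0.02 ± 0.03 (SE, adjusted p = 0.70); both signs turned to 0.04 and 0.03 with arrays centred on their medians. Mlp60A differed by 0.05 ± 0.05 (SE, adjusted p = 0.424) and Mlc2 by 0.13 ± 0.06 (SE, adjusted p = 0.0790). The difference of bt minus that of fln was 0.66 and was positive in 5 of 5 deletions. This pair was chosen after its values were seen, and over all arrays the probe set of fln varied less than that of bt. Counted over the 4 genes that did not pass, the range was -0.02 to 0.13.

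Markers of other tissues moved between the same arrays. In the same fit the germline list was higher in 18 and lower in 1 of 21 genes, with a median of 0.93, and the larval fat body list was lower in 3 of 3 with a median of -2.25. Eggshell and yolk genes were higher in 4 of 12, gut proteases in 9 of 14, and hemocyte genes were lower in 6 of 8. Of all genes 31.5% were higher and 20.1% lower. The germline list ran from -0.76 to -0.10 in single-deletion arrays up to 26 and from 0.10 to 0.75 in those from 27. The eggshell and yolk list ran from -2.23 to 0.32 and from -0.53 to 2.06, and the larval fat body list from -1.20 to 1.37 and from -6.22 to 0.44. With the germline list as a covariate 5 of the 7 genes passed, all higher: bt at 1.2, up at 0.97, TpnC73F at 0.80, Mlc2 at 0.36 and fln at 0.14. The germline values of the number groups do not overlap, so these differences refer to a germline value that the groups do not share. The part of the other lists in the rise of bt, up and TpnC73F was not tested.

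Other sarcomere genes went both ways. Of 26 tested, 6 were higher and 2 lower in arrays from 27, with a median of 0.01, so 8 of 26 passed where 51.6% of all genes did. The formin Fhos, which assembles actin filaments, was higher by 0.59 ± 0.14 (SE, adjusted p = 0.00356), zormin, a Z-disc and M-line protein, by 0.54 ± 0.19 (SE, adjusted p = 0.0302), and the actin capping gene cpa by 0.50 ± 0.05 (SE, adjusted p = 2.43e-05). Zasp67, a Z-disc protein, was lower at -0.42 ± 0.17 (SE, adjusted p = 0.0487), and so was TpnC4, a flight muscle troponin C, at -0.10 ± 0.04 (SE, adjusted p = 0.0335). In the list of excitation and calcium genes 3 of 6 were higher, beside 31.5% of all genes upward, Dys by 0.51, Itpr by 0.35 and the calcium pump SERCA by 0.21. In that of muscle energy supply 3 of 13 were higher, against the same 31.5%, the arginine kinase gene Argk1 by 0.25, Gpdh1 by 0.22 and the ADP/ATP carrier gene sesB by 0.14. Among regulators the wing selector vg and the flight muscle selector salm were lower, at -0.90 and -0.48, and erect wing (ewg) was higher by 0.33. Against wild type none of the 24 sarcomere, 5 calcium, 12 energy and 5 regulator genes tested passed in the single deletions.

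The genes were next set against the germline list over all 44 arrays, as the change in log2 value per unit of the list's mean. The flight muscle genes fell most clearly: the slope was -0.16 ± 0.03 (SE, adjusted p = 4.61e-06) for fln and -0.11 ± 0.02 (SE, adjusted p = 9.79e-06) for Act88F. Mlc2 also passed, at -0.14 ± 0.06 (SE, adjusted p = 0.0256). The share of all 7464 genes that passed was 69.9%, with 32.2% downward. Centred on array medians Mlc2 had -0.10 and did not pass (adjusted p = 0.104). The slopes of bt (0.02), up (-0.09), TpnC73F (-0.13) and Mlp60A (-0.03) did not pass. Without wild-type replicate 4 Mlc2 had -0.06 (adjusted p = 0.211), and without replicate 5 adjusted p was 0.0562.

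With the array number group as a block the slopes were steeper. All 7 genes then had a negative slope and passed, beside 70.8% of all genes, 33.6% downward: up -0.63, TpnC73F -0.67, bt -0.49, Mlc2 -0.33, fln -0.25, Act88F -0.16 and Mlp60A -0.14. For bt the slope was flat over all arrays and negative with the block, and its level within genotype was higher from 27. Its correlation with the germline list (Pearson's r) was -0.81 up to 26 and -0.27 from 27, where its slope did not pass. Among the 25 arrays up to 26 all 7 passed as well, from -0.92 for up to -0.21 for Act88F and Mlp60A, and 64.2% of the genes did, 31.8% downward. Among the 19 arrays from 27 the 7 slopes were negative and 4 passed, namely fln at -0.19, Act88F at -0.10, Mlc2 at -0.20 and up at -0.25, beside 44.3% of the genes, 14.9% downward.

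Wild-type replicate 4 has the highest germline value of the 44 arrays, and the slopes were shallower without replicates 4 and 5. With the block and without both, 6 of 7 genes passed beside 55.4% of all genes, 24% downward, with TpnC73F at -0.55, up at -0.40, bt at -0.31, Mlc2 at -0.21, fln at -0.17 and Act88F at -0.09, and Mlp60A at -0.06 (adjusted p = 0.284). Among arrays up to 26 without both, 5 of 7 passed beside 27.1% of all genes, 12.2% downward, bt at -0.59 and up at -0.64 among them. Over all arrays without both and without the block, 3 of 7 passed beside 66.6% of all genes, 29.6% downward: fln at -0.11 and Act88F at -0.07 had negative slopes, and bt had a slope of 0.24 (adjusted p = 0.042).

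Of the 26 other sarcomere genes tested, 18 fell and 2 rose with the germline list over all arrays, beside 69.9% of all genes passing, 32.2% downward. Zasp67 had -0.81, Mlp84B -0.47 and sals, a regulator of thin filament length, -0.43. With the block 21 fell and 2 rose, beside 70.8% of all genes, 33.6% downward. With the block and without wild-type replicates 4 and 5 the counts were 18 and 1, beside 55.4%, 24% downward. Without these replicates and without the block they were 11 and 2, beside 66.6%, 29.6% downward. Mlp84B is at 1 copy in carriers of ED7665, which are all among the arrays from 27. Among those arrays its slope was -0.12 (adjusted p = 0.737), and with the block and without replicates 4 and 5 it was -0.26 (adjusted p = 0.195). Lists of other tissues differed from each other, and the same shares of all genes stand beside their counts. Neuron genes fell in 9 of 12 and hemocyte genes in 6 of 8 over all arrays, photoreceptor genes in 2 of 6, and gut proteases rose in 14 of 14. Without wild-type replicates 4 and 5 neuron genes fell in 7 of 12, hemocyte genes in 6 of 8 and photoreceptor genes in 2 of 6, and gut proteases rose in 14 of 14. With the block and without both, 10 of 12 neuron genes, 3 of 8 hemocyte genes and 4 of 6 photoreceptor genes fell, and 12 of 14 gut proteases rose.

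**Figure D4:**
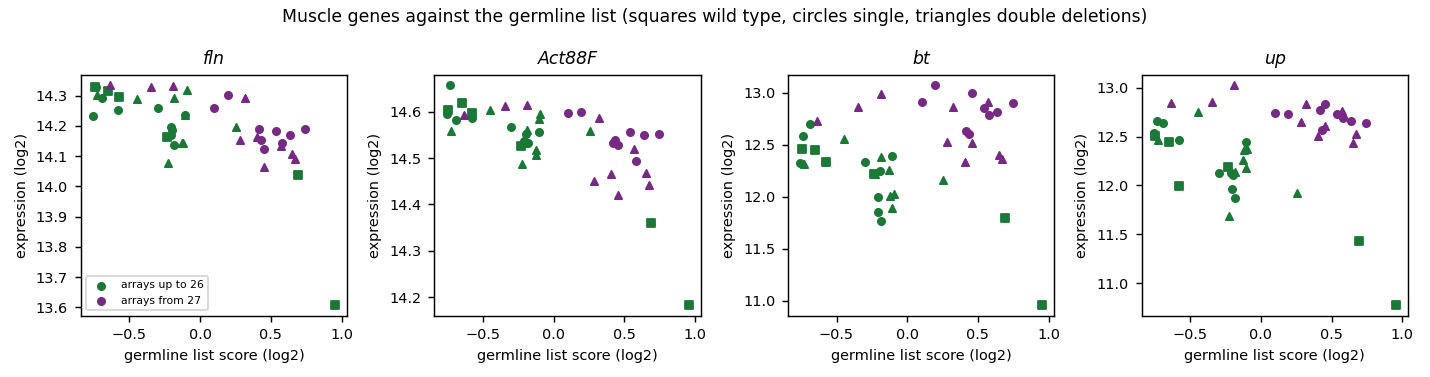
Log2 expression (y axis, scale differs between panels) of fln, Act88F, bt and up against the mean of the germline list on each array relative to its mean over 44 arrays (x axis, log2), with arrays up to 26 in green, arrays from 27 in purple, and squares, circles and triangles for wild type, single and double deletions. Slopes over all arrays are -0.16 for fln and 0.02 for bt, and with the number group as a block -0.25 and -0.49.

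Over the 44 arrays the 7 genes correlated positively with each other, and part of this rested on wild-type replicates 4 and 5. The 21 pairwise correlations (Pearson's r) lay between 0.46 and 0.94, with a median of 0.70; they ran from 0.61 to 0.96 among the 25 arrays up to 26 and from 0.21 to 0.89 among the 19 from 27. Without wild-type replicates 4 and 5 the 21 correlations lay between -0.02, for Mlp60A and fln, and 0.88, for Act88F and fln, with a median of 0.51. All points share the array, its normalization and the makeup of the pool. Act88F and fln, the genes of the flight muscle proper, were the closest pair at 0.94, and bt and up stood at 0.89. Without the wild-type arrays Act88F and fln still stood at 0.87, whereas Act88F and bt stood at 0.20 and Act88F and TpnC73F at 0.08. For the probe sets of Mlp60A without wild type, the middle and dimmest correlated at 0.86, the middle with Act88F at 0.81, and the brightest with the middle at 0.17.

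The 10 genes outside the set whose pattern was most like the mean of the 7 standardised genes included known muscle genes. The Z-disc gene Zasp52 came first with r of 0.95 over 44 arrays, paramyosin (Prm), a thick filament core protein, had 0.93, and the muscle actin Act87E had 0.92. Limpet (Lmpt), a LIM protein, had 0.93, the calcium-binding protein gene Cbp53E had 0.92, the kinase gene par-1 had 0.93, pot had 0.93, RluA-1 had 0.92, and CG7781 and CG43078 had 0.94 each. Of the 26 tested sarcomere genes 6 were among the 100 most alike of 7478 genes, and their median r was 0.73 against -0.01 for all genes. Without wild-type replicates 4 and 5 (42 arrays, chosen after the data were seen) the 10 genes had r of 0.83 to 0.90, and 5 of them were still among the 10 most alike. Of the sarcomere genes 3 were then among the 100 most alike, with a median r of 0.59 against 0.01 for all genes.

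For scale, muscle genes that do lie in a deleted interval may be set beside these. These 4 were picked after their values were seen. The intervals themselves were drawn from lower values in carriers on these same arrays, so low values inside them are no independent result. Mlp84B, the close relative of Mlp60A, lies in ED7665 and stood at -0.95 ± 0.11 (SE) in its carriers, a fitted 51.9% of the level of non-carriers. In the same carriers the myosin chaperone gene unc-45 was at 59.7%. The calcium release channel gene RyR was at 64.0% in carriers of ED1770, and the glycolytic gene Pgi at 56.8%. Mlp60A, which lies outside the mapped intervals, differed by 0.11 ± 0.05 (SE, limma adjusted p = 0.104) in carriers of ED7665.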

How the data were processed

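RNA of whole adult females was hybridised to 44 Affymetrix arrays. The deposited log2 values per probe set were made with RMA, per the submitters' processing notes; no version, log base or build is named in the sources used here, and the log2 scale was read from the range of the values. RMA fits probes jointly and normalizes between arrays. Saturation of probes could not be checked without scanner files.

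Probe sets were named through the platform annotation and matched to Release 6 genes by gene identifier: 13647 had 1 gene, 402 several and 4903 none, and 13537 were matched. The probe set with the highest mean stood for a gene, and genes whose mean reached 6 were tested. The 292 tested genes in the 7 intervals, mapped from the expression values, were left out where their deletion entered. limma 3.58.1 (R 4.3.3, trended moderation) and Benjamini-Hochberg adjustment over all genes tested gave the calls at 0.05; exact permutation tests used scipy 1.17.1. Python 3.11.15 with numpy 2.4.6, pandas 2.3.3 and matplotlib 3.10.9 served for the rest. The fits were tested on simulated data.

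The set, the lists and the tests were chosen with earlier results of these data known. All genes of the set are named. Of each other list up to 3 tested genes with the largest difference are named, and the 10 genes most like the set. Also named are the sarcomere genes that were lower in the array number comparison and the muscle genes picked from the intervals. The alternatives were the filter, the probe set rule, scaling, moderation, left-out arrays, the array number group, a replicate block and list covariates.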

Additional observations from a re-analysis of the deposited data

Results flagged for a closer look

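Among the 6 wild-type arrays, the brightest probe set of Mlp60A had 13.09 in replicate 4, and its gap to the nearest array was 0.707 of the whole range, above the critical value of 0.625 for 6 arrays. Of the 10 probe sets checked in this way, 1 stood out, and chance gives about 1 in 20. The same array was the lowest of 44 for each of the 7 genes.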

How the results depend on the processing

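In single deletions against wild type 1 of 7 genes passed. The count was 0 with no filter on low values, with the mean of all probe sets, in limma without trend, without wild-type replicates 4 and 5, with the array number group as a block, and among arrays up to 26. It was 3 with the germline list as a covariate (up 0.66, TpnC73F 0.68, Mlp60A 0.25), and 0 to 1 with single arrays left out. fln turned to -0.069 and Act88F to -0.028 without wild-type replicates 4 and 5, and with single arrays left out fln lay between -0.021 and 0.12. Over all genes the 92 calls became 6 with the array number block, 3 among arrays up to 26, 156 without wild-type replicates 4 and 5, 1466 with the germline covariate, and 20 to 159 with single arrays left out.

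Whether replicates with the same replicate number were handled together is not said in the labels. Of 71 such pairs of different genotypes 44 correlated above 0.1, with r from -0.73 to 0.85. In all 16 of 22 arrays correlated best with their own replicate number. In 5 deletions replicate 3 is also the only array from 27. Among these replicates 3 r ran from 0.56 to 0.84. Replicate 3 of wild type, numbered up to 26, had r from -0.73 to -0.18 with them. For replicate 3 the count therefore cannot tell pairing from the array number group. The main fit did not use the replicate number. With the replicate block 2 genes passed (TpnC73F 0.41, Mlp60A 0.16), fln had -0.062 and Act88F -0.025, and 1410 genes passed in all. Replicate numbers above 3 occur only in wild type, so with the block those arrays carry no weight. The comparison then rests on the wild-type replicates numbered up to 3. The block can also take up part of the array number difference through replicate 3. These counts are therefore not like for like with the main fit. The block could not be estimated for the array number, and doubles and carriers include genotypes with 1 array.

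Among deletions, and between doubles and singles, 0 of the 7 genes of the set passed under each alternative run. Over all genes 2 to 17 passed among deletions with single arrays left out. For carriers the count of 1 of 49 became 2 with a mean of at least 7, 3 centred on array medians or without wild-type replicates 4 and 5, 4 with quantile normalization, 6 with the germline covariate, and 0 with the number block or within either number group. It was 1 to 4 with single arrays left out, at 3 without wild-type replicate 4 or ED1612 replicate 3, at 2 without replicate 1 of ED1612 or ED5071, and at 4 without ED1770 replicate 1 or replicate 3 of ED4559, ED10953, ED1770 or ED3. Reversed values were Mlp60A in ED5071 at -0.14 (mean of probe sets), bt in ED7665 at -0.15 (number block) and -0.20 (from 27), and up in ED5071 at -0.035 (from 27).

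For the array number the count of 3 became 5 with the germline covariate (fln 0.14 past the threshold, Act88F 0.091 not) and 1 to 4 with single arrays left out. In the single-deletion arrays the germline values of the number groups do not overlap. Centring gave fln 0.034 and Act88F 0.038, and Act88F lay between -0.024 and 0.0029 with single arrays left out. For the slope on the germline list the count of 3 became 7 with the number block or up to 26, 6 with the block and wild-type replicates 4 and 5 left out, 5 up to 26 without both, and 6 on the eggshell and yolk list. The slope of bt was then -0.49, -0.75, -0.31, -0.59 and -0.077, and -0.16 from 27. Without wild-type replicates 4 and 5 up turned to 0.16, Mlp60A to 0.039 and TpnC73F to 0.077. With single arrays left out 2 to 3 genes passed, up lay between -0.12 and 0.071, Mlp60A between -0.045 and 0.024, TpnC73F between -0.17 and 0.019, and bt between -0.015 and 0.17, each highest without wild-type replicate 4. In wild type the other probe sets stood at 9.73 and 8.22 for Mlp60A and at 3.51 for TpnC73F.

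The fits on arrays from 27 alone, those of the slope that leave out wild-type replicates 4 and 5 with the block or up to 26, and the correlations without these replicates were chosen after the data were seen. Scaling moved array medians by up to 0.147 (centring). The cause of these changes was not tested. Without scanner files the signal over background is unknown.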
